A study of Homo sapiens with 6 samples.

Results

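The feedback inhibitors of ERK signalling followed here are 9 genes. They were listed by name, but with earlier results of these data known. They are the dual-specificity phosphatase genes DUSP1, DUSP4, DUSP5 and DUSP6, the Sprouty genes SPRY1, SPRY2 and SPRY4, and the Spred genes SPRED1 and SPRED2. All 9 were found, each on a single row of every table, among 26931 gene symbols. With either siRNA the 3 Sprouty genes, DUSP1 and DUSP6 rose and SPRED2 fell. SPRY1 went from barely detected to a mean above 5 FPKM. DUSP4 stayed under 1 FPKM in every library.

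The cells were TC32, an established Ewing sarcoma line. Most tumours of this kind carry a fusion between EWSR1, an RNA-binding protein gene, and FLI1, which encodes an ETS transcription factor. The 3 groups of 2 libraries were all from TC32 cells harvested 48 h after transfection: siNeg cells received a control siRNA, siEWSR1 cells an siRNA to EWSR1 and siFLI1 cells an siRNA to FLI1. All groups share the transfection, the cell line and its fusion, so every comparison is within 1 line, and which stretch of either mRNA the siRNAs target was not given in the sources used here. Levels are FPKM, fragments scaled by transcript length and by the mapped fragments of the library, so they can be compared between genes of different length. Changes are differences in log2(FPKM + 0.5), which understate the fold of genes with low values. They are given with the standard error (SE) of a limma fit across 13043 genes and a p adjusted over these genes by Benjamini-Hochberg. A gene is said to have risen or fallen where that adjusted p was under 0.05.

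ERK is the last kinase of the cascade that runs from growth factor receptors through RAS, RAF and MEK. Active ERK induces genes whose products switch the cascade off again. Dual-specificity phosphatases remove the activating phosphates from ERK itself. Sprouty proteins act upstream, between receptor and RAF, and Spred proteins bring the RAS inactivator neurofibromin to the membrane. Because many of these genes are induced by ERK, their mRNA is often read as a sign of pathway activity, although other inputs regulate them too.

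Promoter sequences are printed for the member that rose the most on the log2 scale (SPRY1), for the 2 phosphatase genes that rose with both siRNAs (DUSP6 and DUSP1) and for the 1 gene that fell (SPRED2), so that genes that changed in opposite directions can be compared. Each runs 5′ to 3′ from 250 bases before to 50 bases after an annotated start, taken from RefSeq on GRCh38.p14, a build other than that of the expression files. SPRY1 and SPRED2 have 2 such windows each in the table, of which the first listed is shown. SPRY1 lies at chr4:123396545-123396844 on the plus strand, DUSP6 at chr12:89352452-89352751, DUSP1 at chr5:172771146-172771445 and SPRED2 at chr2:65432550-65432849, the last 3 on the minus strand. Capitals mark matches to the core of the cAMP response element, TGACGT on either strand.
SPRY1: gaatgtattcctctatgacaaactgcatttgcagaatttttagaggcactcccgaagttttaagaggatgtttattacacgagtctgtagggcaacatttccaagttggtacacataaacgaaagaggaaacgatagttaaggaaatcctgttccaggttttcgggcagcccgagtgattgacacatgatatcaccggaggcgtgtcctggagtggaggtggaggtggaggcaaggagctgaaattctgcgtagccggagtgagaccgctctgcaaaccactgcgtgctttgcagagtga
DUSP6: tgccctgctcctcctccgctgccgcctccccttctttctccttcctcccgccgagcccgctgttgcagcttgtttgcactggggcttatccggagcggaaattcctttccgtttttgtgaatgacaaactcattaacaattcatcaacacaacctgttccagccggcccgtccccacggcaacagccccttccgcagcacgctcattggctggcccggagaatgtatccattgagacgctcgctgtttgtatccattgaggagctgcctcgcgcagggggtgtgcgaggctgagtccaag
DUSP1: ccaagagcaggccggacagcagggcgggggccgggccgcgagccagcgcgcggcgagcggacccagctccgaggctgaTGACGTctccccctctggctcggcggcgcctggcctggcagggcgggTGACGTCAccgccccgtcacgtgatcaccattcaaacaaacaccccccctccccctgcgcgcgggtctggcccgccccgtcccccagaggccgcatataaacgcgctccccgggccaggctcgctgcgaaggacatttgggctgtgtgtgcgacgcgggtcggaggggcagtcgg
SPRED2: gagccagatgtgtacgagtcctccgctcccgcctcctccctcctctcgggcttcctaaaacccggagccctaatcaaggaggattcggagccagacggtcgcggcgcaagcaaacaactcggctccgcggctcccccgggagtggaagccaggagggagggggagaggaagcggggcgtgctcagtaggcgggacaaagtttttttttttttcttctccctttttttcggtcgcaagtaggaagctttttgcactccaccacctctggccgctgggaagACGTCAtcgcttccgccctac

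Searched on both strands were 5 motifs, in the 11 windows matched to 7 of the 9 members. They were an ETS core with flank (CGGAAGT), 2 GGAA units in tandem (GGAAGGAA), TGACGT, the AP-1 site TGANTCA and the CArG box bound by serum response factor. DUSP4 and DUSP5 were not searched: windows on chromosome 8, where DUSP4 lies, were left out, and no window was found for DUSP5. DUSP1 held 3 TGACGT matches, of which 2 overlap on opposite strands, and the SPRED2 window above held 1. The second SPRED2 window held 2 AP-1 matches. The windows of SPRY1, SPRY2, SPRY4, DUSP6 and SPRED1 held none of the 5 motifs. Among all 35116 promoter windows of the same length in the table, 7.98% held TGACGT, 7.71% the AP-1 site, 6.83% the ETS core, 3.67% the GGAA pair and 1.29% the CArG box. The matches describe these letters in these windows and show neither binding nor its absence.

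Before the members, the targeted genes were read as a check of the labels. EWSR1 mRNA was at 46.5 and 47.2 FPKM with siNeg and at 34.6 and 32.3 with siEWSR1, a log2 change of -0.48 ± 0.06 (SE, limma adjusted p = 0.000444). FLI1 mRNA was at 10.9 FPKM in each control library and at 8.98 and 8.56 with siFLI1, a change of -0.29 ± 0.06 (limma adjusted p = 0.00423). In each case the targeted mRNA was below both siNeg values. The other partner was not called: FLI1 changed by -0.04 with siEWSR1 (limma adjusted p = 0.534) and EWSR1 by 0.11 with siFLI1 (limma adjusted p = 0.11). EWSR1 was, however, called higher with siFLI1 in 1 of 16 alternatives (limma adjusted p = 0.0107), and its change ranged from 0.06 to 0.20 over them. Of 5 genes that mark Ewing sarcoma cells (CD99, NKX2-2, NR0B1, STEAP1 and PRKCB) the summed level was 650 to 681 FPKM with siNeg, 367 to 443 with siEWSR1 and 402 to 432 with siFLI1. Markers of other cell types were low but also differed between the groups. The sum of 5 blood markers was 0.235 to 0.350 FPKM with siNeg, 0.520 to 0.614 with siEWSR1 and 0.370 to 0.494 with siFLI1, with CD3E at 0 in every library and PTPRC at 0 in all but 1. The sum of 4 endothelial markers was 0.224 to 0.254, 0.401 to 0.420 and 0.507 to 0.563 FPKM in the same order, of which CDH5 was at 0.0129 and 0 with siNeg and 0.173 to 0.286 in the other libraries. The sum of 4 epithelial markers was 1.52 to 2.56 FPKM with siNeg, 0.324 to 0.374 with siEWSR1 and 0.505 to 0.668 with siFLI1. Within it ESRP1 was lower in the siEWSR1 and siFLI1 libraries and CDH1 higher, at 0.0172 and 0 FPKM with siNeg and 0.0947 to 0.319 in the others. The part of these markers in the results on the members was not tested. If the deposited intervals are read as 2 counting errors on either side, they give 15121800 to 16257400 fragments per library. These are not counts, since the intervals do not scale as counting error alone. For DUSP6 this reading gives 556 fragments at 5.96 FPKM (siNeg replicate 1) and 1071 at 16.8 FPKM (siEWSR1 replicate 2), a smaller rise than that of the FPKM.

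Of the 9 members 6 rose and 1 fell with siEWSR1, beside 33.2% and 31% of all tested genes, or 64.2% in either direction. With siFLI1 also 6 rose and 1 fell, beside 35.7% and 29.6% of tested genes, or 65.3% in either direction. Since most tested genes were called, the size of the change is given for each member. The median change of the 8 tested members was 1.06 with siEWSR1 and 1.03 with siFLI1, against 0.0071 and 0.041 over all tested genes. Genes were tested when at least 2 libraries reached 1 FPKM, and SPRY1 passed only through the siEWSR1 and siFLI1 libraries. SPRY4 also needed those libraries to pass, since of the controls only siNeg replicate 1 reached the level (1.02 FPKM). The counts and medians over tested members therefore only describe, and support nothing. With no such filter all 9 were tested. Of these, 5 rose with siEWSR1 and 6 with siFLI1, beside 24.2% and 26.5% of genes. With each siRNA 1 fell, beside 18.6% and 17.9%. The middle change of the 9 was then that of DUSP1, at 0.86 and 0.91, against medians of 0.018 and 0.028 over all genes. Both comparisons use the same 2 siNeg libraries, so they are given side by side and not as independent results. In bulk RNA of this kind, fewer cells that express a gene and less of its RNA per cell cannot be told apart.

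**Figure D1:**
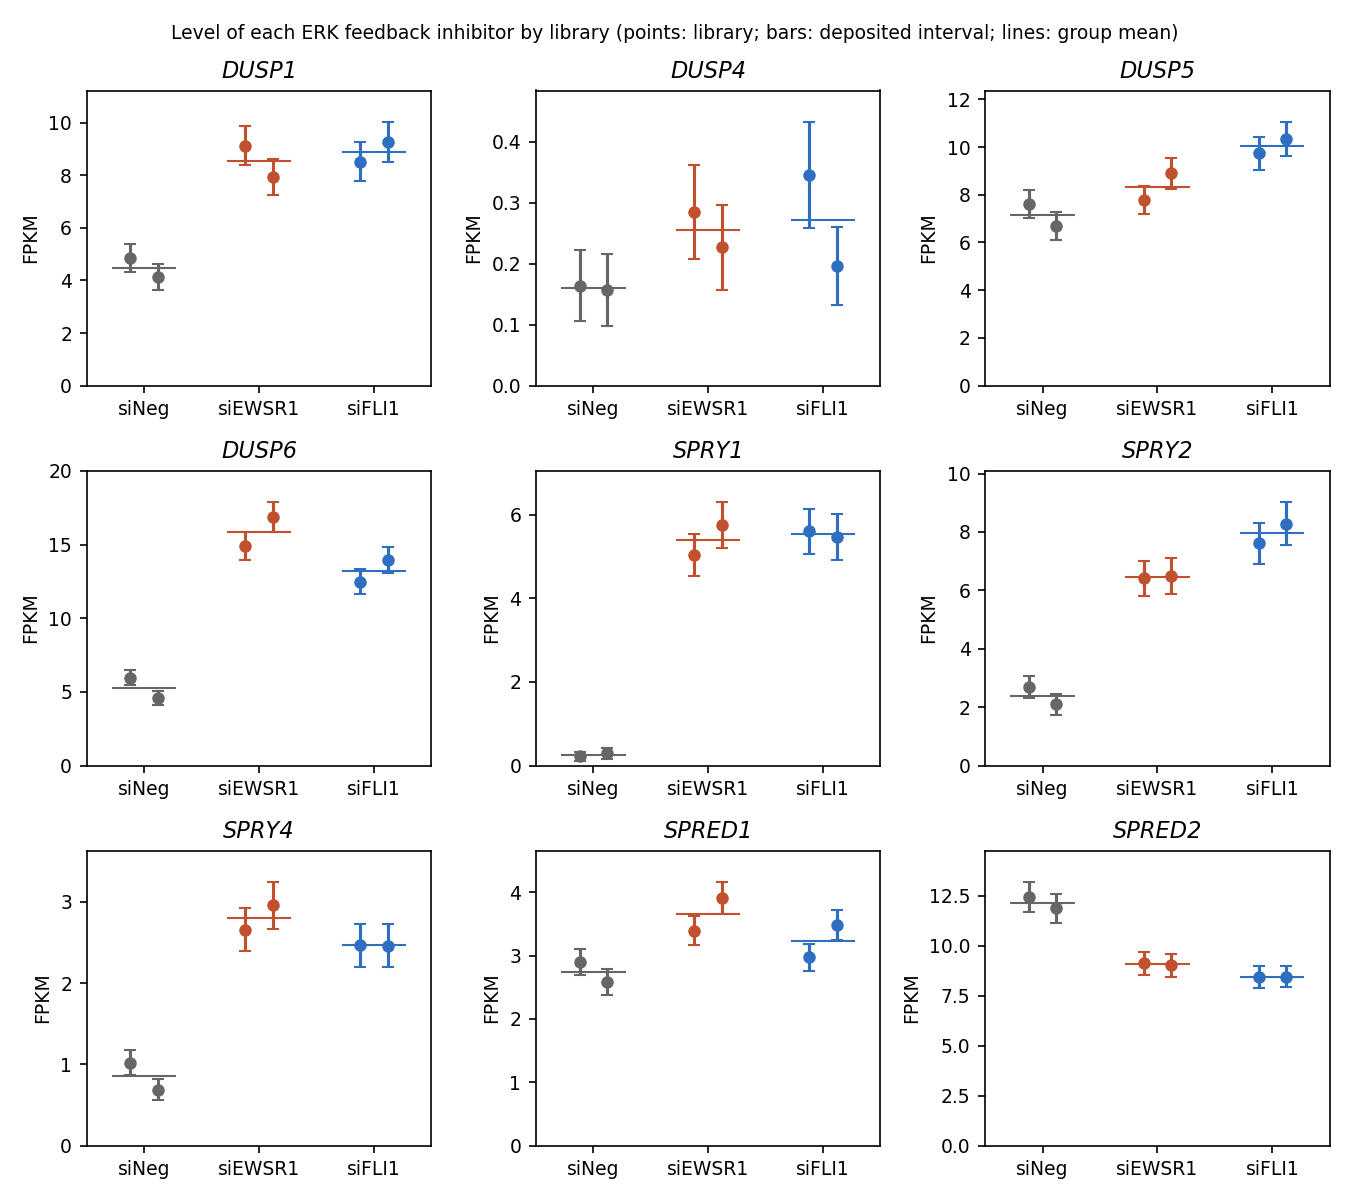
FPKM (y axis, from 0, with its own scale in each panel) of the 9 inhibitors in the 2 libraries of each siRNA group (x axis); points are libraries, vertical bars the deposited interval of that library and horizontal lines the group mean. SPRY1 lies at 0.225 and 0.291 FPKM with siNeg and between 5.03 and 5.74 in the other 4 libraries, and SPRED2 is the panel in which the siNeg libraries are highest.

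DUSP6 encodes a cytoplasmic phosphatase that acts on ERK in preference to the other MAP kinases. Its level (hg19, chromosome 12, 89741602 to 89746636) was 5.96 and 4.59 FPKM with siNeg, 14.9 and 16.8 with siEWSR1, and with siFLI1 it was 12.5 and 13.9. All 4 libraries with an siRNA to a fusion partner lay far above both control libraries. The change was 1.51 ± 0.13 with siEWSR1 (SE, limma adjusted p = 0.000124) and 1.26 ± 0.13 with siFLI1 (limma adjusted p = 0.000237). The ratio of mean FPKM to siNeg was 3.01 with siEWSR1 and 2.51 with siFLI1.

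DUSP1 encodes a nuclear phosphatase and an immediate early gene product that acts on JNK and p38 as well as ERK. Its level (chromosome 5, 172195093 to 172198203) was 4.84 and 4.13 FPKM with siNeg, 9.12 and 7.92 with siEWSR1, and with siFLI1 it was 8.51 and 9.25. The 2 siNeg libraries were lowest and the siEWSR1 and siFLI1 libraries interleaved. DUSP1 rose by 0.86 ± 0.10 with siEWSR1 (limma adjusted p = 0.000527) and by 0.91 ± 0.10 with siFLI1 (limma adjusted p = 0.00036), mean ratios of 1.90 and 1.98 in FPKM.

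DUSP5 encodes a nuclear phosphatase that acts on ERK and can hold it in the nucleus. Its level (chromosome 10, 112257625 to 112271302) was 7.61 and 6.69 FPKM with siNeg, 7.78 and 8.89 with siEWSR1, and with siFLI1 it was 9.74 and 10.3. The 3 groups do not overlap, but the lower siEWSR1 library lay only just above the higher siNeg library. DUSP5 rose by 0.46 ± 0.09 with siFLI1 (limma adjusted p = 0.00463). With siEWSR1 its change was 0.21 ± 0.09 (95% interval -0.01 to 0.43, limma adjusted p = 0.0892), a value that passed the threshold without siEWSR1 replicate 1 (0.30, adjusted p = 0.0373).

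DUSP4 encodes a nuclear phosphatase of ERK that is closely related to DUSP1. It was listed (chromosome 8, 29190579 to 29208267) at 0.164 and 0.157 FPKM with siNeg, 0.284 and 0.227 with siEWSR1, and with siFLI1 it was 0.345 and 0.197. The siEWSR1 and siFLI1 libraries were each above both siNeg libraries, but the 2 siFLI1 libraries differed 1.75-fold from each other. DUSP4 did not reach the level for testing, and with no filter on level its change was 0.19 ± 0.10 with siEWSR1 (limma adjusted p = 0.216) and 0.22 ± 0.10 with siFLI1 (limma adjusted p = 0.168). Read as 2 counting errors, which is only approximate, the deposited intervals would put these levels at 28.5 to 62.9 fragments per library. That is the fewest of any member except SPRY1 in the siNeg libraries.

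All 3 Sprouty genes rose with either siRNA, SPRY1 by more than any other member. SPRY1 (chromosome 4, 124317950 to 124324915) encodes an inhibitor of receptor tyrosine kinase signalling. SPRY1 mRNA was at 0.225 and 0.291 FPKM with siNeg, 5.03 and 5.74 with siEWSR1, and with siFLI1 it was 5.60 and 5.45. The 4 libraries with an siRNA to a fusion partner lay far above the controls, and the control values rest on about 15.9 and 20.8 fragments. The change was 2.96 ± 0.09 with siEWSR1 (limma adjusted p = 4.74e-06) and 2.99 ± 0.09 with siFLI1 (limma adjusted p = 3.45e-06). Among the changes of the 13043 tested genes, ordered from the highest, SPRY1 was at rank 93 and 113. The ratio of mean FPKM was 20.9 with siEWSR1 and 21.4 with siFLI1, much above the 7.76 and 7.96 that the log2 differences give. A pseudocount of 0.1 in place of 0.5 gave log2 changes of 3.94 and 3.98.

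SPRY2 encodes the most widely studied Sprouty protein, which binds GRB2 and the ubiquitin ligase CBL. Its level (chromosome 13, 80910111 to 80915250) was 2.70 and 2.09 FPKM with siNeg, 6.41 and 6.50 with siEWSR1, and with siFLI1 it was 7.61 and 8.29. Both siFLI1 libraries were above both siEWSR1 libraries, and all 4 were above siNeg. SPRY2 rose by 1.27 ± 0.11 with siEWSR1 (limma adjusted p = 0.000133) and by 1.55 ± 0.11 with siFLI1 (limma adjusted p = 5.4e-05), mean ratios of 2.69 and 3.32 in FPKM.

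SPRY4 encodes a Sprouty protein that inhibits RAS activation downstream of growth factor receptors. Its level (chromosome 5, 141689992 to 141704620) was 1.02 and 0.687 FPKM with siNeg, 2.65 and 2.95 with siEWSR1, and with siFLI1 it was 2.47 and 2.46. The order was reversed from SPRY2, with both siEWSR1 libraries the highest. SPRY4 rose by 1.30 ± 0.13 with siEWSR1 (limma adjusted p = 0.000281) and by 1.14 ± 0.13 with siFLI1 (limma adjusted p = 0.000439), mean ratios of 3.28 and 2.88 in FPKM. SPRY4 is the 1 member whose locus holds another listed gene, the intronic RNA SPRY4-IT1. That RNA was listed at 0.212 and 0.056 FPKM with siNeg, 0.48 and 0.886 with siEWSR1, and with siFLI1 it was 0.288 and 0.57. The strand setting of the counting was not given in the sources used here, so the split of reads between SPRY4 and SPRY4-IT1 is uncertain.

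The 2 Spred genes did not move together. SPRED2 encodes a membrane protein that inhibits RAF activation and, like SPRED1, binds neurofibromin. Its level (chromosome 2, 65537985 to 65659656) was 12.4 and 11.9 FPKM with siNeg, 9.13 and 9.01 with siEWSR1, and with siFLI1 it was 8.44 and 8.46. The siNeg libraries were the highest, and the replicates of each group differed by no more than 1.05-fold. SPRED2 fell by 0.40 ± 0.06 with siEWSR1 on the log2 scale (limma adjusted p = 0.00108) and by 0.50 ± 0.06 with siFLI1 (limma adjusted p = 0.00039), with mean FPKM 1.34 and 1.44 times as high in siNeg.

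SPRED1 is the gene mutated in Legius syndrome, a disorder of the RAS pathway. Its level (chromosome 15, 38545052 to 38649450) was 2.90 and 2.58 FPKM with siNeg, 3.40 and 3.91 with siEWSR1, and with siFLI1 it was 2.97 and 3.49. The siEWSR1 and siFLI1 libraries overlap, and the lower siFLI1 library is close to the higher siNeg library. SPRED1 rose by 0.36 ± 0.11 with siEWSR1 (limma adjusted p = 0.0263), a call that ended with quantile normalization (0.17, adjusted p = 0.233), with no filter on level (adjusted p = 0.0692), without siNeg replicate 2 (0.29, adjusted p = 0.13) and without siEWSR1 replicate 2 (0.27, adjusted p = 0.115). With siFLI1 the change was 0.20 ± 0.11 (95% interval -0.06 to 0.46, limma adjusted p = 0.148), and it was -0.01 with quantile normalization.

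**Figure D2:**
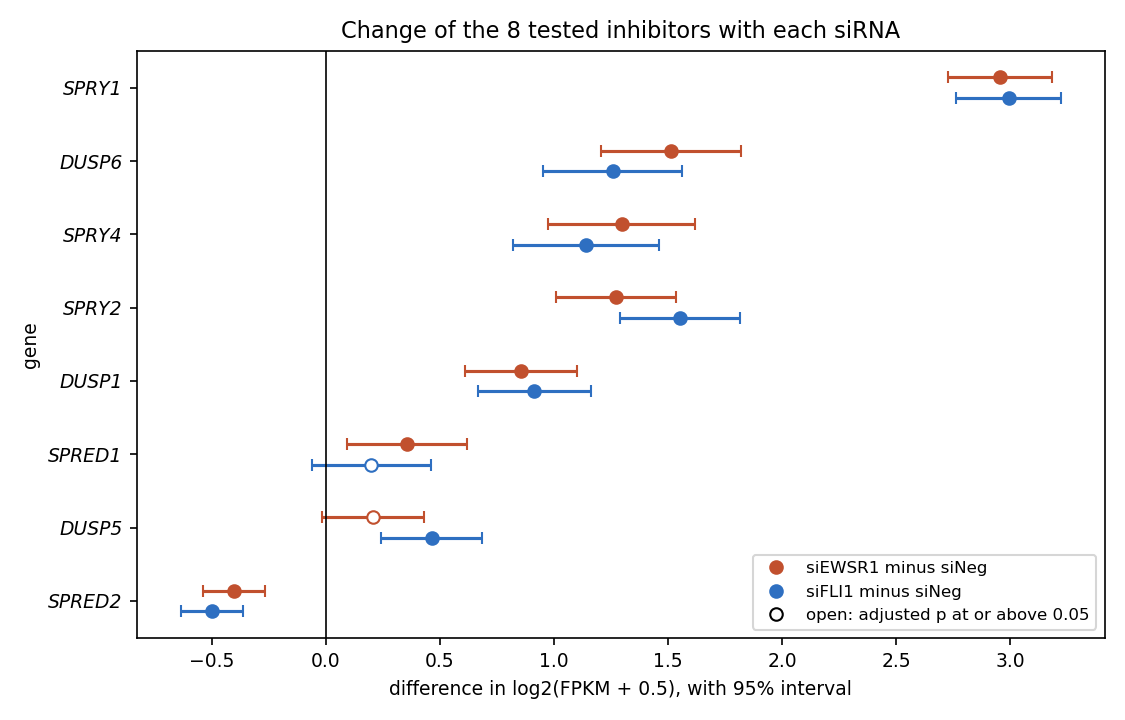
Difference in log2(FPKM + 0.5) from siNeg (x axis) for the 8 tested inhibitors (y axis), with siEWSR1 and siFLI1 in separate colours; bars are 95% intervals of the limma fit over 2 libraries per group, and open points did not pass an adjusted p of 0.05. SPRY1 stands alone near 3, DUSP6, SPRY4 and SPRY2 lie between 1.14 and 1.55, and SPRED2 is the 1 gene below 0.

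None of the 8 tested members was called different between siEWSR1 and siFLI1 (limma), where 0.79% of tested genes were called higher and 3.07% lower with siEWSR1, or 3.86% in either direction. At an unadjusted p under 0.05 there were 2, SPRY2 and DUSP5, both lower with siEWSR1. For SPRY2 the difference of siEWSR1 from siFLI1 was -0.28 ± 0.11 (95% interval -0.54 to -0.02, limma adjusted p = 0.191). For DUSP5 it was -0.26 ± 0.09 (interval -0.48 to -0.03, limma adjusted p = 0.166). DUSP6 differed by 0.26 ± 0.13 in the other direction (interval -0.05 to 0.56, limma adjusted p = 0.287). SPRY1 was nearest to equal, at -0.04 ± 0.09 (interval -0.27 to 0.19, limma adjusted p = 0.851). DUSP5 and SPRED1, each called with 1 siRNA only, are thus not shown to respond differently to the 2 siRNAs, and 2 libraries per group do not show that any member responds alike.

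Per length of transcript, the order of the members changed between groups. With siNeg, SPRED2 was the highest at 12.2 ± 0.395 FPKM (mean ± SD, n = 2), followed by DUSP5 at 7.15 ± 0.650, DUSP6 at 5.27 ± 0.965 and DUSP1 at 4.49 ± 0.502. The libraries of DUSP6 and DUSP1 overlapped there, as did those of SPRED1 and SPRY2. SPRY4, SPRY1 and DUSP4 were the lowest 3. With siEWSR1, DUSP6 led at 15.9 ± 1.37 FPKM, and SPRED2, DUSP1 and DUSP5 followed between 8.34 and 9.07 FPKM with overlapping libraries. With siFLI1, DUSP6 led at 13.2 ± 1.03 FPKM, DUSP5 came next at 10.04 ± 0.419, and SPRED2 followed DUSP1 at 8.45 ± 0.0121. DUSP4 was last in all 3 groups.

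Summed over the 9 genes, the level was 33.1 to 37.8 FPKM with siNeg, 58.7 to 62.0 with siEWSR1 and 58.2 to 61.9 with siFLI1. The phosphatase genes held 47.0% to 49.1% of this sum with siNeg and 53.4% to 54.7% in the other libraries. Sprouty genes went from 9.28% to 10.4% of the sum with siNeg to 24.0% to 24.5% with siEWSR1 and 26.2% to 26.9% with siFLI1. Spred genes went from 40.5% to 43.7% with siNeg to 20.8% to 21.3% and 19.3% to 19.6%. The mix of transcripts for these inhibitors therefore held a larger share from Sprouty genes and a smaller share from Spred genes in each of the 4 libraries with an siRNA to a fusion partner. These sums are descriptions and were not tested.

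**Figure D3:**
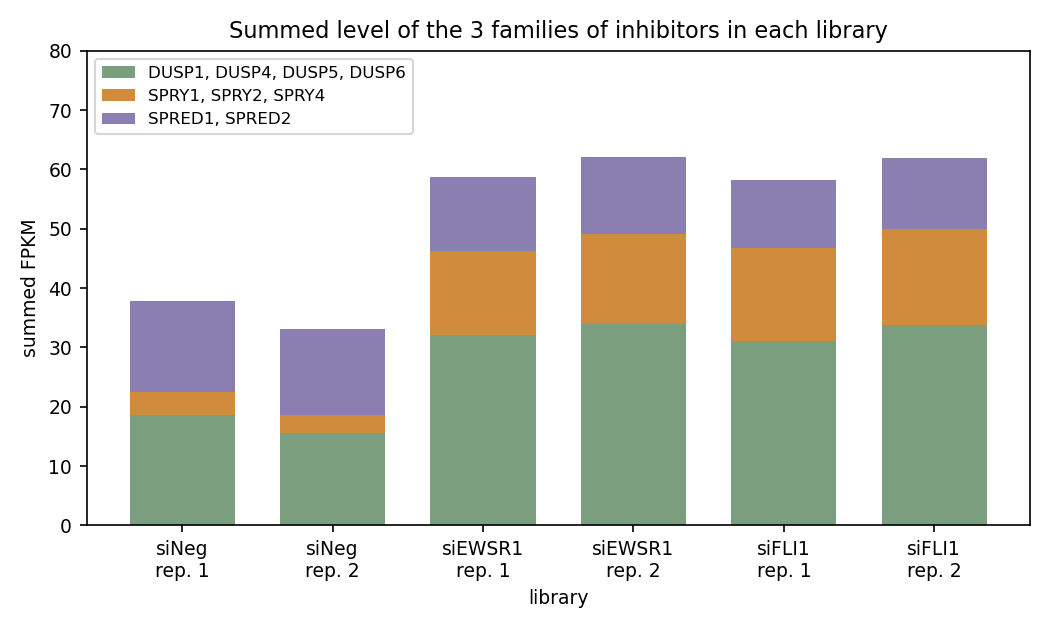
Summed FPKM (y axis, from 0) of the phosphatase, Sprouty and Spred genes stacked for each of the 6 libraries (x axis). The Sprouty part is 3.07 to 3.94 FPKM in the siNeg libraries and 14.1 to 16.2 in the other 4, while the Spred part is 14.5 to 15.3 and 11.4 to 12.9.

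Genes with the most similar pattern were found for each tested member by the distance, over the 6 libraries, of log2 values centred on siNeg, among 8558 candidates whose FPKM averaged 5 or more. The nearest to SPRY1 was NYNRIN, at 1.28 and 1.34 FPKM with siNeg and 13.02 to 14.5 in the other libraries (distance 0.144). The nearest to SPRY2 was RGS4, which encodes a regulator of G-protein signalling, at 10.5 and 8.18 FPKM with siNeg and 22.0 to 29.7 in the others (distance 0.089). SAP30L was nearest to DUSP6 (0.253), SSU72 to DUSP1 (0.15), SBDS to DUSP5 (0.068), TTLL3 to SPRY4 (0.23), EDEM3 to SPRED1 (0.058) and URI1 to SPRED2 (0.022). Distances for DUSP6 and SPRY4 were the widest, and that for SPRED2 the narrowest.

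The rest of the pathway was read from lists by role. Of 12 growth factor ligand genes only 5 were expressed enough to test. HGF, the ligand of the MET receptor, went from 0.067 and 0.02 FPKM with siNeg to between 1.06 and 1.21 in the other libraries and rose with both siRNAs (1.56 ± 0.12 and 1.61 ± 0.12, limma adjusted p = 8.12e-05 and 6.15e-05). FGF2, a ligand of FGF receptors, fell by 0.48 and 0.61. IGF1, an activator of the IGF receptor, rose by 0.35 with siEWSR1 (limma adjusted p = 0.0434), a call kept in 6 of 15 alternatives and lost without siNeg replicate 2 (0.23, adjusted p = 0.21), siEWSR1 replicate 2 (0.21, adjusted p = 0.191) or either siFLI1 library (adjusted p = 0.0657 and 0.0672). It was at -0.13 with siFLI1 (limma adjusted p = 0.389). In all, 2 ligands rose and 1 fell with siEWSR1, and 1 rose and 1 fell with siFLI1. With no filter on level, all 12 were tested, and 3 rose and 1 fell with either siRNA.

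Like SPRY1, some genes of these lists reached the level for testing only through the siEWSR1 and siFLI1 libraries: HGF, PDGFRA, FGFR3, DUSP2, PHLDA1 and ETV5. DUSP9 reached it only through the siNeg libraries. The counts per list are therefore given with the filter and without it. Counts with the filter stand beside 33.2% and 31% of tested genes that rose and fell with siEWSR1, and 35.7% and 29.6% with siFLI1. Counts with no filter stand beside 24.2% and 18.6% with siEWSR1, and 26.5% and 17.9% with siFLI1. Of 11 tested receptor tyrosine kinase genes, 7 rose and 2 fell with siEWSR1 and 8 rose and 2 fell with siFLI1, with medians of 0.63 and 0.67. With no filter, 8 of 14 rose and 3 fell with siEWSR1, and 9 rose and 2 fell with siFLI1. PDGFRA, a receptor for platelet-derived growth factor, went from 0.331 and 0.315 FPKM to 8.11 and 10.2 with siEWSR1 and 8.62 and 11.0 with siFLI1. FGFR2, a receptor for fibroblast growth factors, went from 9.79 and 9.90 FPKM to 50.3 and 59.2 with siEWSR1 and 62.6 and 65.8 with siFLI1. FGFR1 rose by 1.08 ± 0.07 and 1.02 ± 0.07. The 2 that fell with both siRNAs, named after their values were seen, were KIT (-1.16 and -1.29) and FGFR4 (-0.84 and -0.76).

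The cascade itself showed no common direction. Of 18 genes for adaptors and for RAS, RAF, MEK and ERK, 6 rose and 5 fell with siEWSR1, and 6 rose and 6 fell with siFLI1, with medians of 0.0089 and -0.058. SHC1, an adaptor of receptor kinases, rose by 0.77 and 0.78, and the docking protein gene GAB1 by 0.89 and 1.05. PTPN11, which encodes the phosphatase SHP2 that promotes RAS activation, fell by 0.45 and 0.61.

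For other inhibitors of the pathway the balance of directions turned with the filter. Of 13 tested, 4 rose and 6 fell with siEWSR1, and 4 rose and 7 fell with siFLI1, with medians of -0.03 and -0.27. With no filter, 7 of 16 rose and 4 fell with siEWSR1, and 7 rose and 7 fell with siFLI1, with medians of 0.11 and 0.06. The 3 genes that the filter left out, named after their values were seen, include the closest relatives of the members. SPRY3, another Sprouty gene, was at 0.166 and 0.170 FPKM with siNeg, 0.545 and 0.575 with siEWSR1 and 0.575 and 0.473 with siFLI1. SPRED3, another Spred gene, was at 0.438 and 0.367 FPKM with siNeg and 0.669 to 0.819 in the other libraries. IL17RD, an inhibitor of FGF receptor signalling, was at 0.161 and 0.119 FPKM with siNeg and 0.711 to 1.01 in the others. In the fit with no filter all 3 rose with either siRNA, SPRY3 by 0.67 and 0.61, SPRED3 by 0.55 and 0.42, and IL17RD by 0.98 and 1.15.

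Among the tested inhibitors the phosphatase genes moved both ways. Of these, DUSP2 passed the filter only through the siEWSR1 and siFLI1 libraries and DUSP9 only through the siNeg libraries. Their changes therefore only describe. DUSP2, a nuclear ERK phosphatase, went from 0.534 and 0.556 FPKM with siNeg to 2.44 and 2.55 with siEWSR1 and 2.35 and 2.78 with siFLI1, a rise of 1.52 ± 0.10 and 1.55 ± 0.10. DUSP7, a cytoplasmic ERK phosphatase related to DUSP6, rose by 0.61 and 1.03. DUSP9, a further phosphatase gene of this list named after its values were seen, fell with both siRNAs (-0.80 and -0.81, limma adjusted p = 0.0146 and 0.0140). Its level was 1.35 and 1.66 FPKM with siNeg, 0.899 and 0.438 with siEWSR1, and 0.737 and 0.551 with siFLI1. ERF, a repressor that ERK exports from the nucleus, rose by 0.69 and 0.62, and ERRFI1, an inhibitor of EGF receptors, by 0.29 and 0.55. LRIG1, which promotes loss of receptor kinases, fell by 0.57 and 0.48. Between siEWSR1 and siFLI1, 2 genes of this list were called, named after their values were seen: DUSP7 was lower with siEWSR1 (-0.43, limma adjusted p = 0.0362) and NF1, the gene of neurofibromin, was higher (0.33, limma adjusted p = 0.0340). Against siNeg, NF1 was not called with siEWSR1 (0.06, limma adjusted p = 0.386) and fell with siFLI1 (-0.27, limma adjusted p = 0.00436). The call of DUSP7 ended whichever of the 6 libraries was left out (adjusted p = 0.062 to 0.221), and that of NF1 held only without siEWSR1 replicate 1 (adjusted p = 0.049). Among the 3 phosphatases of JNK and p38, DUSP10 rose by 0.60 and 0.99, DUSP16 fell by 0.55 and 0.50, and DUSP8 was at 0.13 and 0.12 without passing the test.

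Genes known as transcriptional output of ERK were split in direction. So were all tested genes, of which 33.2% rose and 31% fell with siEWSR1, and 35.7% and 29.6% with siFLI1. Of 16 tested, 5 rose and 5 fell with siEWSR1 and 5 rose and 6 fell with siFLI1, with medians of 0.04 and 0.08. The even split depended on the filter with siEWSR1: with none, 8 of 20 rose and 5 fell, while with siFLI1 6 rose and 6 fell. EGR3, named after its values were seen, was left out by the filter, at 0.158 and 0.171 FPKM with siNeg and 0.705 to 0.977 in the other libraries. PHLDA1, an ERK-induced gene that is part of common signatures of MEK activity, went from 0.873 and 0.843 FPKM with siNeg to 4.90 and 5.94 with siEWSR1 and 7.10 and 7.39 with siFLI1. JUNB, an AP-1 subunit gene, rose by 2.27 ± 0.155 and 2.85 ± 0.155. ETV1, an ETS factor gene, fell by 1.31 ± 0.09 and 1.54 ± 0.09. CCND1, which encodes cyclin D1 and was named after its values were seen, fell from 310 and 304 FPKM to 141 and 107 with siEWSR1 and to 126 and 109 with siFLI1. Whether the rise of the Sprouty genes, DUSP1 and DUSP6 is tied to ERK activity was not tested. ERK phosphorylation was not measured in these data.

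**Figure D4:**
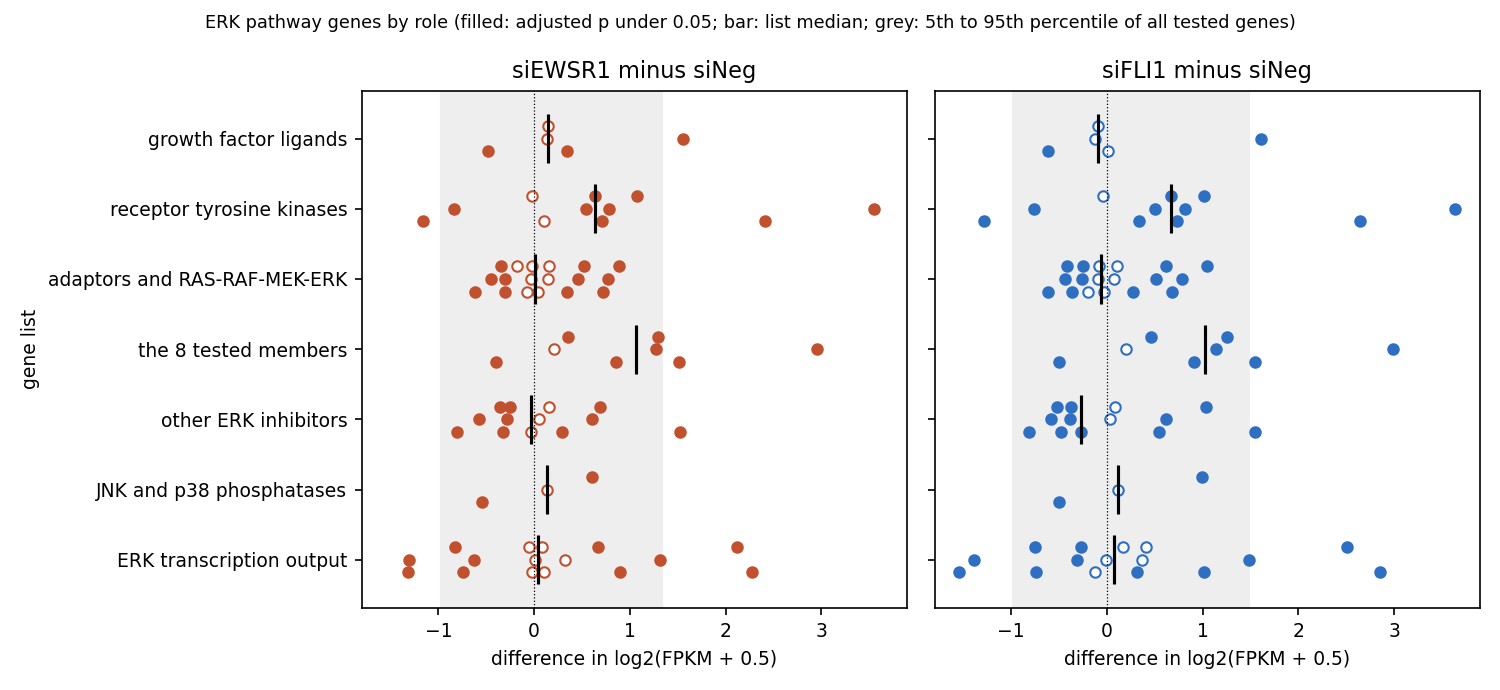
Difference in log2(FPKM + 0.5) from siNeg (x axis) for tested genes of each list (y axis), siEWSR1 on the left and siFLI1 on the right; filled points have an adjusted p under 0.05, black bars are list medians and the grey band spans the 5th to 95th percentile of all tested genes. The medians of the 8 tested members, of which SPRY1 and SPRY4 would not have passed the filter on the siNeg libraries alone, are 1.06 and 1.03. Those of the cascade, the other inhibitors and the output genes lie between -0.27 and 0.08.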

How the data were processed

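The authors deposited 1 table per library, with an FPKM value and its lower and upper bound for each gene. Per the submitters' processing notes, TopHat2 2.0.13, Cufflinks and Cuffdiff were used with build hg19. The sources used here do not give the annotation, strand setting or handling of multiply mapped reads. Since FPKM scales by the library total, a shift in abundant RNAs moves every other value.

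Values of the 380 symbols on more than 1 row were summed. Starts were converted to count from 1. Those reaching 1 FPKM in 2 or more libraries were transformed to log2(FPKM + 0.5). All 6 libraries entered 1 fit with a variance trend (limma 3.58.1, R 4.3.3), which had 3 residual and 3.39 prior degrees of freedom. Each siRNA was compared with siNeg, and siEWSR1 with siFLI1, two-sided, with Benjamini-Hochberg adjustment over 13043 genes and a threshold of 0.05. The fit was also run on simulated data, in which far fewer genes changed than were called here. That run is not used as support for the calls.

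The members, the lists and the tests were chosen with earlier results of these data known. Named genes were all members, EWSR1, FLI1, up to 3 called genes per list and siRNA with the lowest adjusted p and a mean of at least 1 FPKM in the higher group, and the nearest gene to each tested member. Others are identified as named after their values were seen. The alternatives were 2 other pseudocounts, 2 other filters, 2 scalings, 2 variance models, only the groups compared, a replicate block and leaving out each library. Nothing in the labels says whether the 2 libraries of a group came from different cultures; the p-values then reflect library-to-library spread alone, possibly technical.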

Additional observations from a re-analysis of the deposited data

How the results depend on the processing

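Per comparison 16 alternatives were run, 6 of them leaving out 1 library. For DUSP1, DUSP6, SPRY2 and SPRED2 the direction and the side of the threshold were the same in all 16 with either siRNA, and for SPRY1 and SPRY4 in all 15 that tested them. The count of members that rose with siEWSR1 was 3 in place of 6 with a mean FPKM of at least 5, which leaves SPRY1, SPRY4 and SPRED1 untested, and 5 to 7 when a library was left out. With that filter 2518 genes rose with siEWSR1 and 2787 with siFLI1, in place of 4331 and 4656, as fewer were tested. Signs reversed, with no call on either side, for SPRED1 with siFLI1 under quantile normalization (-0.0095), and between siEWSR1 and siFLI1 for DUSP1 without siEWSR1 replicate 2 (0.037, with -0.15 to 0.037 over the libraries left out) and for SPRY1 without siEWSR1 replicate 1 (0.051, with -0.12 to 0.051); the cause was not tested.

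Over all alternatives, list counts with siEWSR1 ranged from 0 to 3 for ligands that rose, 3 to 8 for output genes that rose, 3 to 7 and 2 to 6 for other inhibitors that rose and fell (7 and 4 with no filter, against 4 and 6, which turns the balance), and 3 to 6 for cascade genes that fell. Between siEWSR1 and siFLI1 the genes called ranged from 3 to 209 higher and from 1 to 640 lower, against 103 and 401. Both counts were lowest without siFLI1 replicate 2 (3 and 1), and 0 to 2 other inhibitors were called higher and 0 to 1 lower. With siFLI1 the ranges were 0 to 3 for ligands that rose and 3 to 7 for other inhibitors that rose.

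Same-numbered replicates did not deviate together (correlations of -0.14, -0.05 and 0.07 across genes), so the numbers are not taken as pairs. With a replicate block 6 members rose and 1 fell with either siRNA, as without it, and the genes called between siEWSR1 and siFLI1 were 57 higher and 262 lower.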
